A study of Mus musculus with 15 samples.

Results

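The basic helix–loop–helix (bHLH) factors examined here were the products of 9 genes, Neurog1, Neurog2, Neurog3, Neurod1, Neurod2, Neurod4, Atoh1, Olig1 and Olig2, chosen by name out of 21770 protein-coding genes. Each gene was looked up in 3 lists of regions enriched for histone H3 trimethylated at Lys4 (H3K4me3), a modification found at promoters that are active or poised for activity. A gene was called marked when a peak overlapped the 2000 bp on either side of any of its annotated transcript starts on the GRCm39 mouse genome. All 9 genes were found in the annotation, and genes without a peak were kept. The choice of the 9 genes was made with earlier results of these data known.

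The lists came from chromatin immunoprecipitation followed by sequencing (ChIP–seq) in mBA cells, a murine brown adipocyte line whose labels call it primary and which the study's methods describe as immortalized brown preadipocytes that were differentiated. The 3 conditions were untreated wild-type cells (WT), wild-type cells given 2-hydroxyglutarate, in a form that enters cells and dissolved in DMSO (WT + 2HG, shortened to 2HG beside values), and untreated cells lacking the mitochondrial matrix protease CLPP (CLPP-KO). The comparisons ask how far the metabolite and the loss of the protease alter promoter H3K4me3. The CLPP-KO cells were supplemented with uridine, so uridine and genotype cannot be told apart, and neither can 2HG and its solvent, since the WT samples were labelled untreated. Each condition had 4 ChIP samples and 1 input, 15 samples in all, but the authors called peaks on the 4 samples together. A gene therefore has 1 value per condition, with no replicate spread, and no difference below was tested. The WT list held 12342 peaks with a median width of 825 bp, the WT + 2HG list 14059 peaks with a median of 885 bp and the CLPP-KO list 15118 peaks with a median of 868 bp. The study states only a nominal sequencing depth, and the lists hold no read counts per sample. Both comparisons against WT share the same WT list.

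The label of the cells was set against 12 brown adipocyte markers. Pparg, Cebpa and Prdm16, transcription factors of the adipocyte and brown fat programmes, were marked in all 3 lists. Plin1 and Cidea, which encode lipid-droplet proteins, were marked in both WT + 2HG and CLPP-KO but not in WT, the lipase gene Lipe in WT + 2HG only and the early brown fat regulator Ebf2 in CLPP-KO only. Ucp1, Fabp4, Adipoq, Dio2 and Ppargc1a, among them the defining thermogenic gene Ucp1, had no promoter peak in any list. The study nevertheless reports UCP1 strongly raised in differentiated WT and CLPP-KO cells, and Ppargc1a transcripts raised in CLPP-KO cells. A missing peak therefore does not show that a gene was silent.

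Neural bHLH factors are class II proteins, which bind DNA at E-boxes as heterodimers with the widely expressed E proteins. Proneural members (the neurogenins and Atoh1) commit progenitors to a neuronal fate, NeuroD proteins act later in neuronal differentiation, and the Olig proteins pattern the ventral neural tube and drive the oligodendrocyte lineage. Id proteins sequester E proteins, Hes and Hey repressors act downstream of Notch to silence proneural genes, and Polycomb complexes keep many such developmental genes repressed outside their lineages.

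Stretches of 250 bases from marked and unmarked members are shown for the CpG dinucleotides they hold, which are in capitals below. Each is the run just upstream of the canonical start, read 5′ to 3′ on the gene's own strand from the GRCm39 assembly, except that of Neurod2, whose peaks lay downstream and which is shown by intron sequence next to its last exon. Upstream runs not shown held 11 CpG for Neurod2, 18 for Olig1, 15 for Olig2 and 15 for the unmarked Neurod1. The counts of marked and unmarked members thus overlapped. Neurog2 (chr3:127426198-127426447, plus strand, 22 CpG) lay wholly within a peak in all 3 lists.
Neurog2: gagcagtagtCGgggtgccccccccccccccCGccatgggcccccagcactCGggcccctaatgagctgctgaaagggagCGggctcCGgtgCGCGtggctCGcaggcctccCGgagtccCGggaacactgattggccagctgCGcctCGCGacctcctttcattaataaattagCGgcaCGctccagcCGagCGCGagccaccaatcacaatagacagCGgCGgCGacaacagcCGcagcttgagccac
Neurog1 (chr13:56399977-56400226, minus strand, 27 CpG) lay wholly within its CLPP-KO peak and outside its WT + 2HG peak. An exon of a lncRNA on the other strand, Gm60810, falls in this stretch.
Neurog1: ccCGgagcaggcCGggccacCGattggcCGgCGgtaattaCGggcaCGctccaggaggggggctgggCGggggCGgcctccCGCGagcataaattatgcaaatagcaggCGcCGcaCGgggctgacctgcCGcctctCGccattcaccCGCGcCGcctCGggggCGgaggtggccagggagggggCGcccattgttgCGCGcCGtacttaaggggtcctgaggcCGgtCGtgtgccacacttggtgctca
Of the Atoh1 stretch (chr6:64705859-64706108, plus strand, 14 CpG), 239 bases lay within its CLPP-KO peak.
Atoh1: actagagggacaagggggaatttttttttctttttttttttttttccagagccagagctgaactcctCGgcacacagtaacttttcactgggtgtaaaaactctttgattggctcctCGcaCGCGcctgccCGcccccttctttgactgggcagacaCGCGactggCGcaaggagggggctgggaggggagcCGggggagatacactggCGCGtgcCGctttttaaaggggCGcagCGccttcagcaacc
The Neurod2 intron stretch (chr11:98219168-98219417, minus strand, 21 CpG) lay within the peaks of WT + 2HG and CLPP-KO. It overlaps an exon of the lncRNA Gm71805 on the other strand.
Neurod2: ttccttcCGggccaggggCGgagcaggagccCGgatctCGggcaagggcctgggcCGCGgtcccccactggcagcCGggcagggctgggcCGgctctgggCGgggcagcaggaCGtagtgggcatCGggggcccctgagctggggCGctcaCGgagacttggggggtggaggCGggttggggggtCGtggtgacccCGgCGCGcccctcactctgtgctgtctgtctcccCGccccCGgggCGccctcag
Neurog3 (chr10:61968612-61968861, plus strand, 17 CpG) and Neurod4 (chr10:130116133-130116382, minus strand, 2 CpG) had no peak in any list.
Neurog3: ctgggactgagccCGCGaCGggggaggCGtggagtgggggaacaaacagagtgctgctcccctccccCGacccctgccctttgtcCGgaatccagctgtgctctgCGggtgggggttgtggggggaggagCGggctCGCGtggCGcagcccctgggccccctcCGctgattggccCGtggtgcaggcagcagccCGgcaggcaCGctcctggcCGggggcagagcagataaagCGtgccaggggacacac
Neurod4: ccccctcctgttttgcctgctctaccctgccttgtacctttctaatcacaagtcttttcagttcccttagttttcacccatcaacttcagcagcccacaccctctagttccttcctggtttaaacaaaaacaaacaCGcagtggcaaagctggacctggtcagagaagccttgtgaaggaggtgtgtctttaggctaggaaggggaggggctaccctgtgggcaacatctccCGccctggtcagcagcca

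One of the 9 members, Neurog2, was marked in WT cells. In WT + 2HG 4 members were marked, Neurog1, Neurog2, Neurod2 and Olig2, and in CLPP-KO 6 were marked, the same 4 with Atoh1 and Olig1. Among all 21770 protein-coding genes, 51.3% were marked in WT, 56.4% with 2HG and 58.2% in CLPP-KO. The shares of the members were 11.1%, 44.4% and 66.7%, and with 9 genes each gene counts for 11.1 percentage points.

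A gained gene was one without a WT promoter peak that had one in the WT + 2HG or the CLPP-KO list. Of the 8 members without a WT peak, 3 were gained with 2HG and 5 in CLPP-KO, against 11.6% and 14.9% of the 10611 coding genes without a WT peak. Neurog1, Neurod2 and Olig2 were gained in both lists (9.74% of coding genes), Atoh1 and Olig1 in CLPP-KO only (5.15%). No member was gained in WT + 2HG only. Neurog2, the only member with a WT peak to lose, kept one in both lists. With losses of only 0.914% and 0.672% of WT-marked coding genes in WT + 2HG and CLPP-KO, this says little about the members. Neurog3, Neurod1 and Neurod4 had no promoter peak in any list. Most of the gained peaks were weak: when each list was limited to its 12342 largest peaks, the size of the WT list, 1 member was gained in WT + 2HG (Neurod2) and 2 in CLPP-KO (Neurog1 and Neurod2), against 7.26% and 8.39% of coding genes without a WT peak. When each peak was given only to the gene with the nearest start, Neurod2 was lost from both lists and Neurog1 from CLPP-KO, because lncRNA starts lay closer. That left 2 and 3 members gained, against 12.7% and 14.8% of coding genes.

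**Figure D1:**
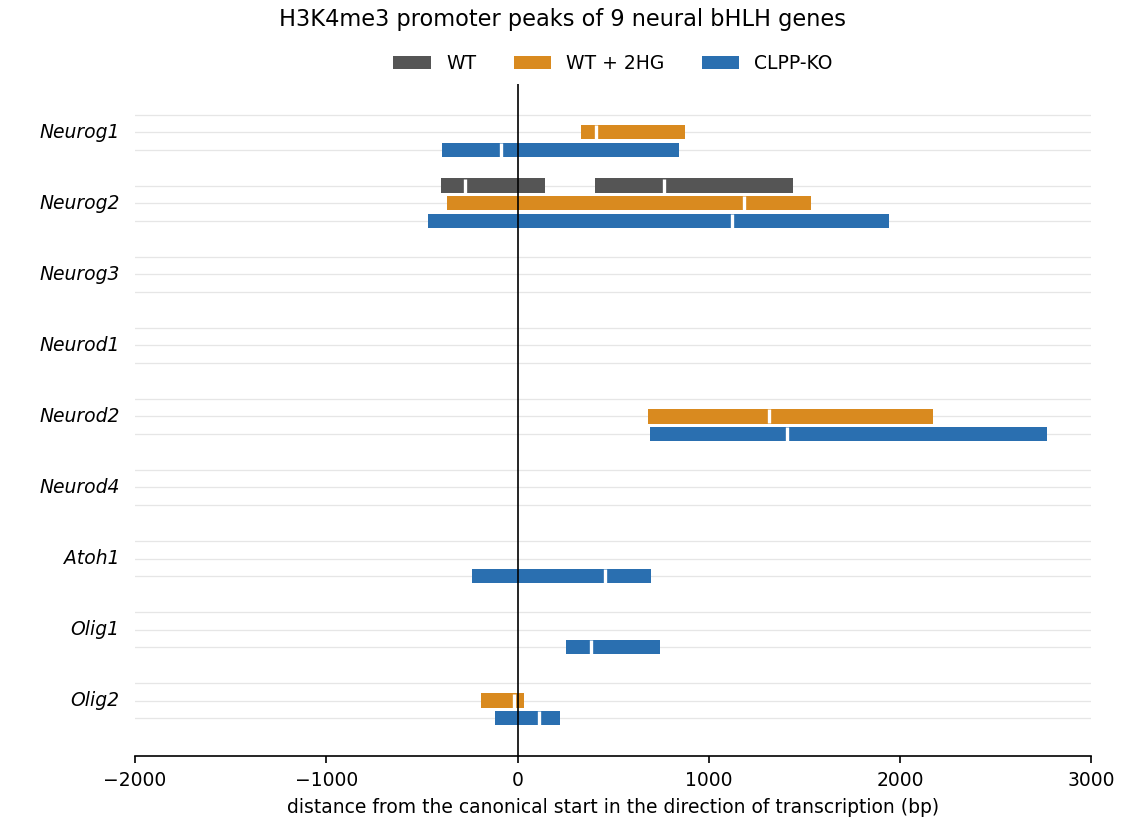
Promoter peaks of the 9 genes in the WT, WT + 2HG and CLPP-KO lists, drawn as bars by distance in bp from the canonical start (vertical line), with downstream to the right and the summit as a white tick. The 2 WT peaks of Neurog2 are both overlapped by 1 longer peak in each of the other lists, the Neurod2 peaks begin 682 and 692 bp downstream, and Neurog3, Neurod1 and Neurod4 are empty.

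The size of a peak is given by the area under its significance curve, as the peak caller reported it. Areas were not scaled between conditions, and the median area was 2970 in WT, 5027 with 2HG and 5744 in CLPP-KO. Peaks are therefore also placed within their own list by a percentile of area, which runs from 0 for the smallest peak to 100 for the largest.

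Neurog2, the neurogenin of cortical and spinal progenitors, carried the largest peak of any member in each list. In WT it carried 2 small peaks, 1 across the start (chr3:127426050-127426592, 543 bp, area 551, percentile 13.9) and 1 within the gene (chr3:127426853-127427885, 1033 bp, area 660, percentile 16.4). In WT + 2HG a single peak of 1905 bp (chr3:127426080-127427984) with an area of 7369 ranked at percentile 64.8. In CLPP-KO a single peak of 2408 bp (chr3:127425980-127428387) with an area of 13691 ranked at percentile 86.2. Both single peaks overlapped both WT peaks and had their summits in coding sequence, 1184 and 1119 bp downstream of the start. Their widths stood at percentiles 94.3 and 98.1 of their lists. H3K4me3 covered 39.4% of the 4001 bp window in WT, 47.6% with 2HG and 60.2% in CLPP-KO.

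Since area sums over width, the WT areas of 2 separate peaks and the area of 1 peak over both in the other lists are not like for like. Of the 11021 coding genes marked in all 3 lists, 64.3% had a higher percentile in WT + 2HG than in WT and 69.9% in CLPP-KO, as Neurog2 did. Of 383 other genes at WT percentiles from 13.9 to 18.9, 2.09% ranked above Neurog2 in WT + 2HG and 1.04% in CLPP-KO. Their median percentiles were 29.9 and 33.1, and the difference from Neurog2 was not tested. By summit p-value the 2 WT peaks of Neurog2 stood at percentiles 15.6 (the peak across the start) and 7.21. Its single peaks stood at 37.8 with 2HG and 41.4 in CLPP-KO, so that its climb was smaller than by area.

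Neurog1, a proneural gene of sensory ganglia and cranial placodes, had its nearest WT peak 6761 bp from the start, the closest of any member without a WT promoter peak. Its WT + 2HG peak (chr13:56399100-56399643) was 544 bp wide, began 333 bp downstream of the start and had an area of 234, close to the smallest area in the list, 200.03. It ranked at percentile 2.41 by area and 0.053 by summit p-value. In CLPP-KO the peak (chr13:56399134-56400372) was 1239 bp wide, crossed the start and had an area of 1511, at percentile 23.6. Only the CLPP-KO peak thus covered the Neurog1 start. Both peaks were also within reach of Gm60810. Neurog3, which specifies the endocrine cells of the pancreas, had its nearest peak 97294 bp away in WT, 21984 bp with 2HG and 21961 bp in CLPP-KO.

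Atoh1, the proneural gene of cerebellar granule cells and inner ear hair cells, was marked in CLPP-KO only. Its peak (chr6:64705870-64706805) was 936 bp wide, spanned the start with its summit 459 bp downstream in the coding exon, and had an area of 839 at percentile 16.5. In WT and WT + 2HG the nearest peak was 313398 and 313471 bp away, so the CLPP-KO peak was the only one within 100 kb. It was also within reach of the lncRNA Gm35851.

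Of the NeuroD genes only Neurod2, which acts in maturing forebrain neurons, was marked, and its peaks were by far the largest of those gained. The WT + 2HG peak (chr11:98218310-98219798) was 1489 bp wide with an area of 6148 at percentile 57.5, and the CLPP-KO peak (chr11:98217712-98219788) was 2077 bp wide with an area of 5659 at percentile 49.5. Among coding genes gained in WT + 2HG the median percentile was 15.5 and 5 of 1227 genes ranked above Neurod2. Among those gained in CLPP-KO the median was 20.4 and 71 of 1579 ranked above it. Neurod2 was the only gained member that stood above the median of a list by area, but by summit p-value it stood at percentiles 34.0 and 29.5, below the median of both lists. Neither peak reached the canonical start. They began 682 and 692 bp downstream of it and covered the most downstream annotated start, which lies at chr11:98219688, with summits in an untranslated part of an exon in WT + 2HG and in coding sequence in CLPP-KO. The lncRNAs Gm33099 and Gm71805 also had starts within reach, so the peaks cannot be assigned to Neurod2 alone. In WT the nearest peak lay 8735 bp away.

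Neurod1, a gene of neuronal and islet differentiation, and Neurod4, which acts in retina and early neurons, lay far from any peak. For Neurod1 the nearest was 177949 bp away in WT, 178014 bp with 2HG and 27668 bp in CLPP-KO. For Neurod4 it was 1346453 bp, 1346287 bp and 132003 bp away. In both cases the CLPP-KO list held a closer peak, still well outside the promoter.

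The neighbouring Olig genes on chromosome 16 were marked only at the lower end of the lists. Olig2, which specifies motor neuron and oligodendrocyte progenitors, had a 225 bp peak in WT + 2HG (chr16:91022106-91022330, area 248, percentile 3.06) and a 338 bp peak in CLPP-KO (chr16:91022181-91022518, area 285, percentile 4.59). Both covered the canonical start. Olig1, which acts in oligodendrocyte maturation, had a 491 bp peak in CLPP-KO (chr16:91066914-91067404, area 320, percentile 5.90) that began 254 bp downstream of the start and lay within reach of the lncRNA Gm41492. In WT the nearest peaks were 102790 bp from Olig1 and 147152 bp from Olig2. Of the genes gained in CLPP-KO, 1384 of 1579 ranked above Olig1 and 1437 above Olig2.

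**Figure D2:**
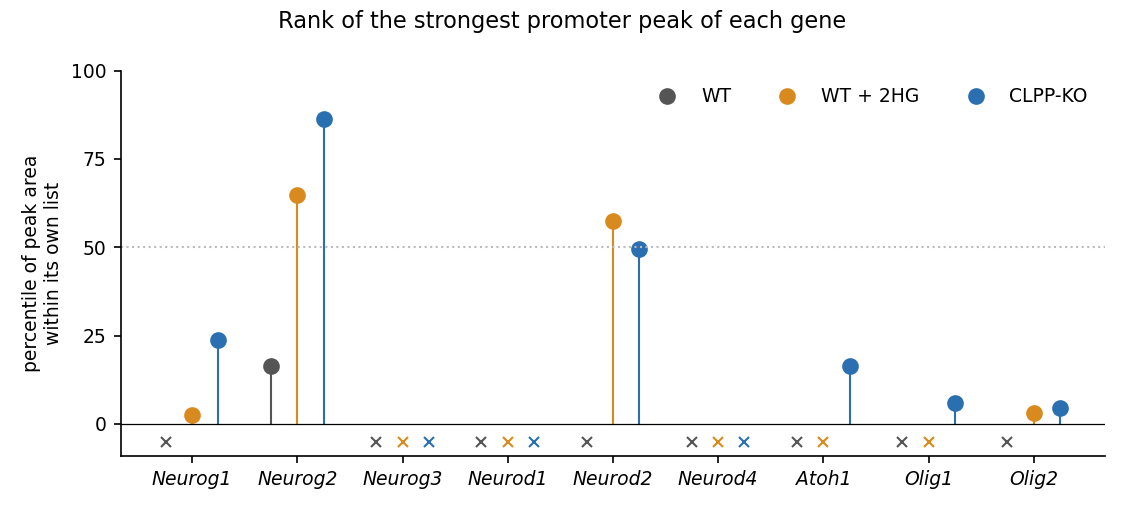
Percentile of area within its own list for the strongest promoter peak of each gene, in WT (grey), WT + 2HG (orange) and CLPP-KO (blue). Crosses below 0 mark genes without a promoter peak and the dotted line marks the middle of a list. Neurog2 climbs from 16.4 to 64.8 and 86.2, Neurod2 stands at 57.5 and 49.5 without a WT peak, and the Olig peaks stay below 6.

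By area, Neurod2 held mid-list peaks in both WT + 2HG and CLPP-KO, with the higher rank in WT + 2HG. Neurog1, Atoh1, Olig1 and Olig2 held peaks between percentiles 2.41 and 23.6, and the 2 of these present in both lists, Neurog1 and Olig2, ranked higher in CLPP-KO by area. By summit p-value the order of Olig2 turned, with percentile 6.79 with 2HG against 2.00 in CLPP-KO. With a summit p-value of at most 1e-05 required in every list, only Neurod2 remained gained in WT + 2HG, and Neurog1 and Neurod2 in CLPP-KO, against 13.1% and 15% of coding genes without a WT peak at that threshold. Fewer cells carrying a mark and less mark per cell cannot be told apart in these bulk samples.

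**Figure D3:**
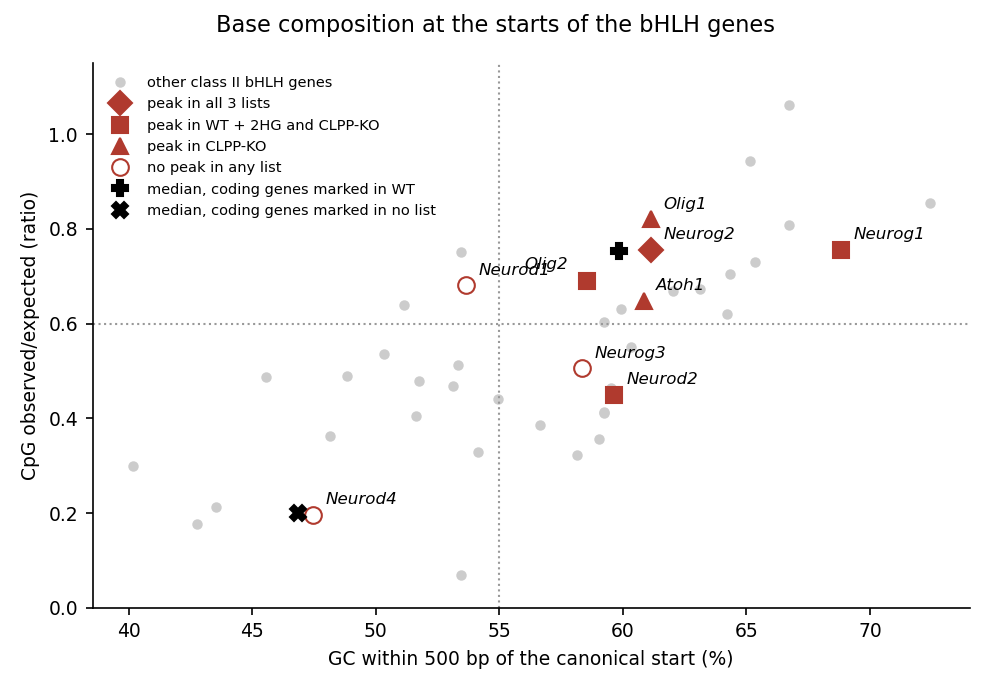
GC content in % (x axis) against the ratio of observed to expected CpG (y axis) within 500 bp of the canonical start for the 9 genes, by the lists that marked them, over the other class II bHLH genes in grey. Dotted lines mark 55% GC and a ratio of 0.6. Neurog1, Neurog2, Atoh1, Olig1 and Olig2 lie in the upper right, and Neurod2 at 0.450 and the unmarked Neurod4 at 0.196 lie below the ratio line.

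A start was called CpG-rich when the 500 bp on either side had at least 55% GC and a ratio of observed to expected CpG of at least 0.6. By this measure 5 of the 9 members were CpG-rich, against 39.2% of coding genes, 68.9% of those marked in WT and 8.11% of those without a WT peak. The 5 were Neurog1 (68.8% GC, ratio 0.756), Neurog2 (61.1%, 0.756), Atoh1 (60.8%, 0.649), Olig1 (61.1%, 0.820) and Olig2 (58.5%, 0.689). None of the 3 members without a peak reached both limits. Neurod1 had the ratio (0.681) but 53.6% GC, Neurog3 the GC (58.3%) but a ratio of 0.506, and Neurod4 neither (47.5%, 0.196). Neurod2 was the exception, with a ratio of 0.450 around its canonical start, although the sequence under its peaks, further downstream, had 70.2% GC and a ratio of 0.810 in WT + 2HG and 68.7% and 0.812 in CLPP-KO. Across all 12 peaks at the members the ratio ran from 0.686 to 0.955.

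The gained members were also set beside coding genes of the same CpG class, a class chosen after seeing the data. The 4 CpG-rich members without a WT peak were all gained in CLPP-KO and 2 of them, Neurog1 and Olig2, in WT + 2HG. Of the 861 CpG-rich coding genes without a WT peak, 64.3% were gained in CLPP-KO and 51.8% in WT + 2HG. Of the 9750 others, 10.5% and 8.01% were gained, and of the 4 such members 1 was, Neurod2, in both lists. None of these differences was tested.

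E-boxes, the sites that bHLH dimers bind, were counted in the 250 bases upstream of the canonical start. The letters CANNTG, which read the same on both strands, occurred in 5 of the 9 members, Neurog1, Neurog2, Neurog3, Neurod1 and Neurod2, and in 64.8% of coding genes. Of its forms, CAGATG, searched on both strands, occurred in Neurod1 and Neurod2 and in 13.0% of coding genes. CAGCTG occurred in Neurog2 and Neurog3 and in 11.9%. Both forms are included in the count of CANNTG. Neither divided the marked from the unmarked members.

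Other class II bHLH genes gave a comparison for the members. Among 19 other neural and related factors, 7 were marked in WT, 9 with 2HG and 10 in CLPP-KO (36.8%, 47.4% and 52.6%, beside 51.3%, 56.4% and 58.2% of coding genes). Of the 12 without a WT peak, Ascl2 and Ascl5 were gained in both lists and Nhlh2 in CLPP-KO only. Among 15 mesodermal factors, 6 were marked in WT, 8 with 2HG and 9 in CLPP-KO (40.0%, 53.3% and 60.0%). Hand2, a heart and limb regulator, and Mesp2, a somite regulator, were gained in both lists and the muscle determination gene Myod1 in CLPP-KO only. The counts gained were thus 2 and 3 of 12 neural and related factors and 2 and 3 of 9 mesodermal factors, beside 11.6% and 14.9% of coding genes without a WT peak. The neural members differed from these lists in starting from 1 marked gene in WT. Members and lists were chosen with earlier results of these data known, so this contrast cannot be read as a trait of the members. It was not tested.

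The ranks of other class II factors were set beside those of Neurog2. Bhlhe22, which acts in cortical and retinal neurons, stood at percentile 20.9 in WT, 79.4 with 2HG and 85.8 in CLPP-KO. Atoh8 was highest among the neural and related factors in WT (99.5) and Ascl4 lowest (1.79), with 96.9 and 98.1 for Atoh8 and 38.2 and 33.9 for Ascl4 in WT + 2HG and CLPP-KO. Twist1, a regulator of mesenchyme, was highest among the mesodermal factors in WT at 98.1 and Mesp1 lowest at 4.10. Of the 7 neural and related factors marked in all lists, 6 ranked higher than in WT in each of the other lists. For the 6 mesodermal factors the numbers were 6 with 2HG and 4 in CLPP-KO. Over all coding genes marked in every list these shares were the 64.3% and 69.9% given above, and the lists differ in length.

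**Figure D4:**
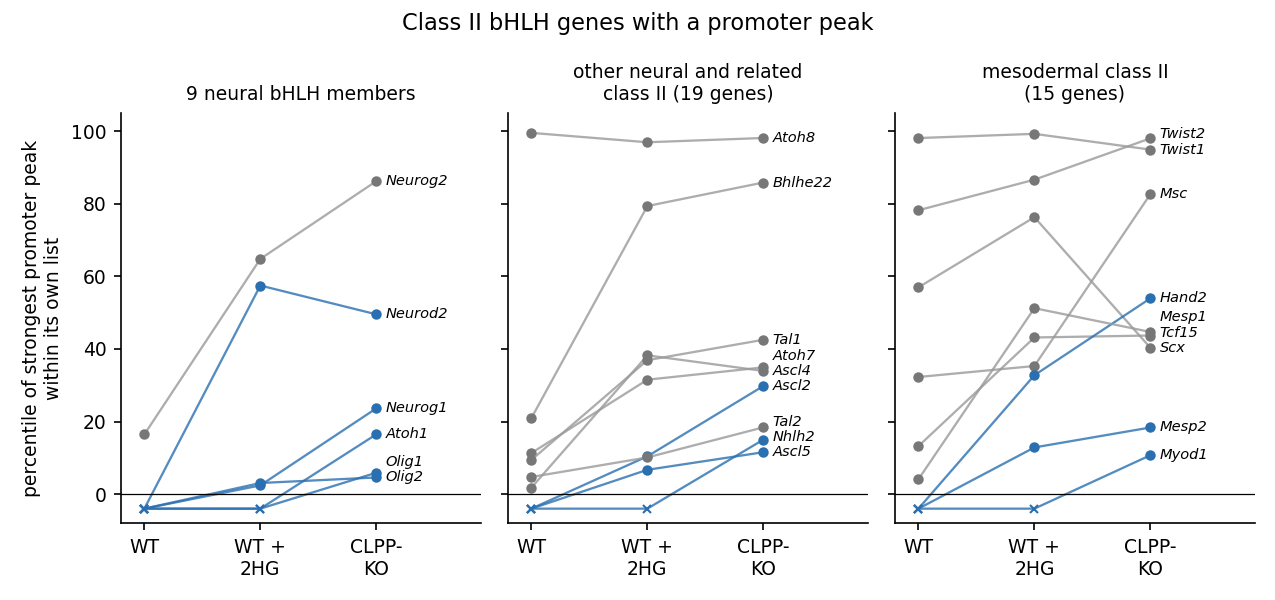
Percentile of the strongest promoter peak within its own list for the class II bHLH genes reported here that had a peak. Lines join the 3 values of a gene, grey for genes marked in WT and blue for genes gained, and crosses below 0 stand for no promoter peak. Neurog2 and Bhlhe22 climb from percentiles of 16.4 and 20.9 in WT to between 64.8 and 86.2.

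Likeness was measured as the distance between 2 genes over their 3 percentiles, with no peak set to 0, among 19 other class II genes with a peak. The closest gene to Neurog2 was Bhlhe22 at 15.3 percentile points. Atoh1 was closest to Nhlh2 at 1.47 points, and Neurog1 also to Nhlh2 at 8.96. Neurod2 was closest to Mesp1 (8.90), and Olig1 and Olig2 were both closest to Myod1 (4.82 and 6.85). Only 3 values enter each distance.

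The partners and inhibitors of the neural factors were already marked in WT. Among all coding genes, 51.3% were marked in WT, 56.4% with 2HG and 58.2% in CLPP-KO. The 3 E protein genes Tcf3, Tcf4 and Tcf12 were marked in every list, at percentiles from 72.7 to 98.5. So were the 4 Id genes. Id3 was highest in WT at 95.0 and Id2 lowest at 8.36, with Id2 at 30.2 with 2HG and 23.1 in CLPP-KO. All 8 genes for REST, the repressor of neuronal genes, and its corepressors were marked throughout, from Hdac1 (48.4 in WT) to Rcor3 (99.0), as were all 10 Polycomb subunit and H3K27 demethylase genes, from Jarid2 (49.9) to Kdm6b (97.6). Every gene of these 4 lists had a WT peak, so none could be gained. None was lost, but with losses of only 0.914% and 0.672% of WT-marked coding genes in WT + 2HG and CLPP-KO this says little about these lists.

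Upstream of the proneural genes, the Notch pathway was also mostly marked in WT. Of 16 ligand, receptor and cofactor genes 14 were marked in WT and 15 in each other list. Among all coding genes the shares marked were 51.3% in WT, 56.4% with 2HG and 58.2% in CLPP-KO. Of the 2 without a WT peak, Dll3, a divergent Notch ligand, was gained in both lists, beside 11.6% and 14.9% of coding genes. Dll3 ranked at percentile 5.81 with 2HG and 20.0 in CLPP-KO, and Mfng was marked in none. With starts of protein-coding transcripts only, 0 Notch genes were gained in either list, beside 11.2% and 14.5% of coding genes. With the summit required in the window, 2 were gained in each, beside 11.4% and 14.7%. Jag1 was highest in WT (97.6) and Dll4 lowest (17.4). Of 10 Hes and Hey repressor genes 5 were marked in WT, 7 with 2HG and 8 in CLPP-KO (50.0%, 70.0% and 80.0%). The WT share was close to the 51.3% of coding genes. Of the 5 without a WT peak, 2 were gained with 2HG and 3 in CLPP-KO, beside 11.6% and 14.9% of coding genes. Hes5, a Notch effector of neural progenitors, was gained at percentiles 23.7 and 49.7 and Heyl at 12.2 and 30.4, while Hes2 was gained in CLPP-KO only, at 15.4. Hes7 was highest in WT (92.2) and Hey2 lowest (30.1).

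Genes that act downstream of the members or mark the lineages they specify were counted in 4 lists. Their marked counts stand beside 51.3% of coding genes in WT, 56.4% with 2HG and 58.2% in CLPP-KO. Of those without a WT peak, 1 and 2 of 6 neuronal genes were gained with 2HG and in CLPP-KO, and in each condition 2 of 5 oligodendrocyte lineage genes, 1 of 4 astrocyte markers and 3 of 8 pancreatic endocrine genes, beside 11.6% and 14.9% of coding genes. With each list limited to its 12342 largest peaks, 0 and 0 neuronal and 0 and 0 astrocyte genes were gained. The oligodendrocyte lineage then gave 0 and 2 and the pancreatic genes 3 and 2, beside 7.26% and 8.39% of coding genes. An area of at least 1000, required in every list, also removed WT peaks, and areas were not scaled between lists. It left 3 of the 16 neuronal, 3 of the 10 oligodendrocyte lineage and 0 of the 10 pancreatic genes marked in WT. More genes could thus be gained than the 6, 5 and 8 without a WT peak above. With this limit the neuronal genes gave 5 and 6 gained, the oligodendrocyte lineage 2 and 3. The astrocyte markers then gave 0 and 0 and the pancreatic genes 5 and 4, beside 13.5% and 16.9%. Of 16 neuronal targets and neuron markers, 10 were marked in WT, 10 with 2HG and 12 in CLPP-KO. Tbr1, a cortical neuron factor, was gained in both (11.7 and 12.7) and Rbfox3, which encodes NeuN, in CLPP-KO only (10.0). Stmn2 had a weak WT peak (4.23), none in WT + 2HG, where 0.914% of WT-marked coding genes lost theirs, and a weak one in CLPP-KO (3.64). Rnd2 was highest in WT (91.2) and Tubb3 lowest among the 9 marked in all lists (4.99). The median percentile of these 9 was 12.5 in WT, 39.6 with 2HG and 47.7 in CLPP-KO, and 8 of them ranked higher than in WT with 2HG and 7 in CLPP-KO, beside 64.3% and 69.9% of coding genes marked in all lists. The 383 genes set beside Neurog2, at WT percentiles from 13.9 to 18.9, had medians of 29.9 and 33.1. That set was not matched to the 9 neuronal genes, which ran from 4.99 to 91.2 in WT. Eomes, a factor of cortical intermediate progenitors, stood at 9.88, 39.6 and 53.9, the RNA-binding protein gene Elavl4 at 7.47, 34.6 and 45.6 and the synaptotagmin gene Syt1 at 5.51, 15.0 and 26.0, while Map2 stood at 56.0, 56.5 and 47.7 and Elavl3 at 20.6, 24.7 and 34.9. Dcx and the synaptic and growth-cone genes Snap25, Syp and Gap43 had no peak in any list.

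Of 10 oligodendrocyte lineage genes, 5 were marked in WT and 7 in each other list, with Sox10 (4.49 and 20.1) and Myrf (11.7 and 29.6), both transcription factors of that lineage, gained in both. Of the myelin genes, Mbp stood at 30.2, 58.3 and 57.6 and Cnp at 28.2, 29.8 and 42.8 in WT, WT + 2HG and CLPP-KO, while Mog and Mag had no peak. Pdgfra was highest in WT (78.3) and Cspg4 lowest (9.77). Of 5 astrocyte markers Slc1a2 was marked throughout (41.5 in WT) and Slc1a3 gained in both (5.94 and 8.37), while Gfap, Aqp4 and Aldh1l1 had none. Of 10 pancreatic endocrine genes 2 were marked in WT and 5 in each other list. Of the 3 gained in both, Nkx6-1 stood at 18.7 and 7.67 and Isl1 at 20.3 and 36.0. Nkx2-2 (17.8, 26.3 and 40.7) and Insm1 (12.5, 49.7 and 59.2) were marked in all 3 lists, and Pax4, Pdx1, Ins1, Ins2 and Gcg had no peak. Each of these marker lists thus held both marked and unmarked genes, and the part of other cell types in the results was not tested.

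**Figure D5:**
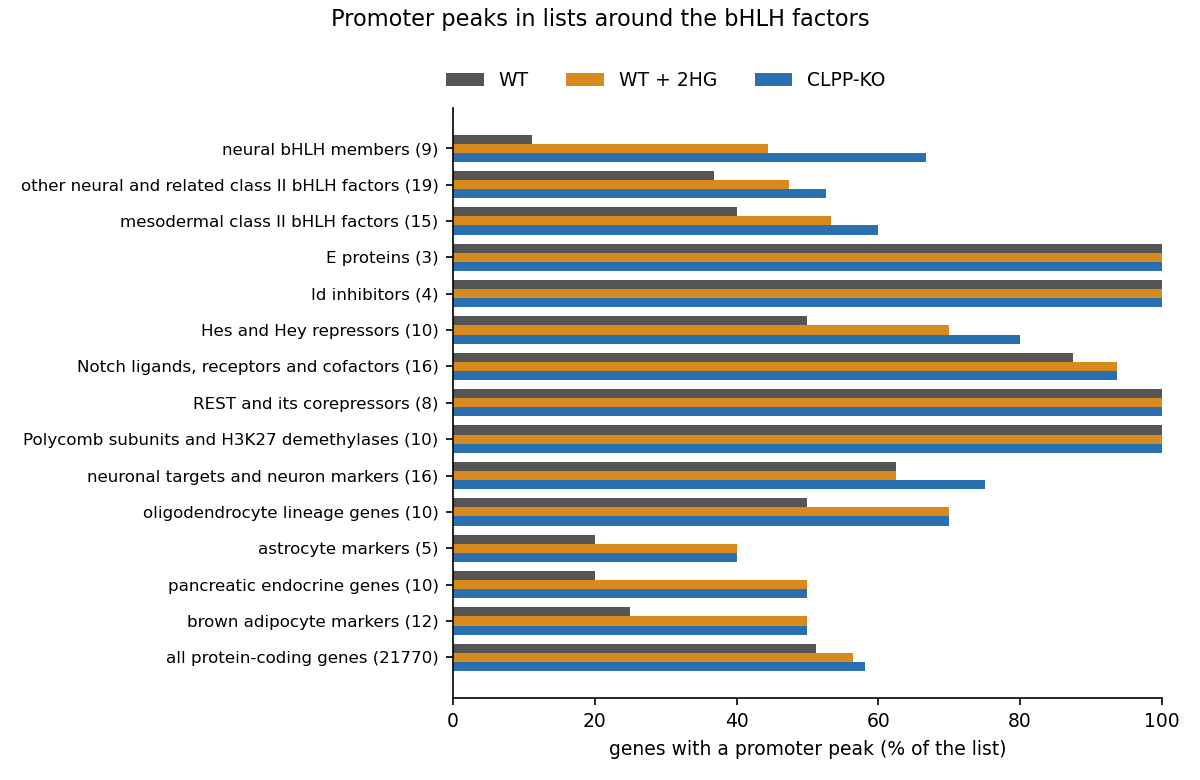
Share of genes in % with a promoter peak in WT (grey), WT + 2HG (orange) and CLPP-KO (blue) for the 9 members, 13 related lists and all coding genes, with the number of genes in brackets. The members go from 11.1% to 44.4% and 66.7%, while the E protein, Id, REST and Polycomb lists are at 100% throughout and all coding genes go from 51.3% to 56.4% and 58.2%.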

How the data were processed

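Per the study's methods, the submitters' processing notes and the labels, the authors trimmed reads with fastp 0.23.4, mapped them with BWA 0.7.17 to mm39 (GRCm39) and called peaks with Genrich 0.6.1, which combined the p-values of the 4 replicates of a condition, each against input, into 1 list; deepTools 3.5.4 was also named. The deposited lists gave each peak a score capped at 1000, a signal (the area under the significance curve) and the summit's p-value as −log10, while the q-value field was a placeholder for every peak. Signals were not scaled between lists and were used as percentiles within a list. Only a nominal read depth is stated, and the lists hold no read counts.

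Peaks were matched to the transcript starts of GENCODE M39 on the same build with Python 3.11.15 and pandas 2.3.3 (2000 bp either side, overlap of at least 1 bp). The matching was checked on planted peaks, 200 of 200 of which were recovered, and against bedtools 2.31.1 on chromosome 11, with equal pairs in 3 of 3 lists. The 9 genes and the 13 related lists (136 distinct genes) were chosen with earlier results of these data known. Named were all 9 members, each gene of a related list that was gained or lost, and the highest and lowest in WT among those marked in all lists, and the class II gene most like each member; Mbp, Cnp, Map2, Eomes, Elavl3, Elavl4, Syt1 and genes without a peak were named after their values were seen. A few genes of the related lists enter the counts but are not reported here. The class of CpG-rich genes was also chosen after seeing the data. Sequence was read from the GRCm39 assembly. No test was made, as each condition had 1 list. The tables of RefSeq promoters were on another build and were not used. Alternatives were other windows, start sets, matching rules, thresholds, list sizes and rankings.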

Additional observations from a re-analysis of the deposited data

How the results depend on the processing

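No paired analysis was possible because each list pools the 4 samples of its condition, and no replicate could be left out either. Of 60 counts of members under 12 alternatives, 43 stayed within 1.5 times the main count and 17 moved. Windows of 1000, 3000 or 5000 bp, protein-coding transcripts or canonical starts only (the latter added after seeing the data), the summit in the window and 50% of the peak in the window left all 5 counts as they were. With an area of at least 1000 required, the members marked in WT, WT + 2HG and CLPP-KO numbered 0, 2 and 3, with 2 and 3 gained, Neurog2 then counting as gained in both and Neurog1 and Neurod2 as marked in CLPP-KO. With a summit p of at most 1e-05 they numbered 1, 2 and 3, with 1 and 2 gained. Lists limited to 12342 peaks by area gave the same 1, 2 and 3, with 1 and 2 gained, and by summit p 1, 2 and 2, with 1 and 1 gained. With each peak given to the nearest start alone, 3 members were gained in CLPP-KO. Under these alternatives the share of coding genes gained lay between 7.13% and 13.5% with 2HG, and for CLPP-KO between 8.28% and 16.9%. Of 780 counts over the related lists 694 stayed within 1.5 times and 86 moved. Of 33 percentiles of the members under 3 other rankings 26 moved beyond a 95% binomial interval around the main value. That interval treats the peaks of a list as independent draws and serves only as a yardstick, since it holds no replicate spread. Ranked by summit p, Neurod2 stood at 34.0 in WT + 2HG and 29.5 in CLPP-KO. A weak peak in 1 list and none in another does not show absence of the mark, since only a nominal depth is stated and read counts per sample are not in the lists.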
